A study of Mus musculus with 10 samples.

Results

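The glutathione S-transferase (GST), UDP-glucuronosyltransferase (UGT) and sulfotransferase (SULT) genes encode the enzymes that conjugate drugs, hormones, bilirubin and reactive products of lipid peroxidation in the liver. To describe their expression in HFD-fed mice with hepatocyte-specific overexpression of the stress kinase ASK1, all protein-coding genes whose names begin with Gsta, Gstk, Gstm, Gsto, Gstp, Gstt, Gstz, Mgst, Ugt1, Ugt2, Ugt3, Ugt8 or Sult were taken from the deposited liver RNA sequencing table. These were 68 of its 54532 genes, 25 GST, 22 UGT and 21 SULT genes. Membership followed from gene names alone, whereas the families were chosen with earlier results of these data known. Livers of 10 mice were compared, 5 ASK1f/f controls and 5 ASK1+hep mice (C57BL/6J background). ASK1f/f mice are homozygous for a ROSA26 construct that holds murine ASK1 cDNA behind a lox-stop-lox cassette, and ASK1+hep mice additionally carry Alb-Cre, which removes the stop cassette in hepatocytes. Thus, both groups carry the construct, and whether ASK1+hep mice were homozygous for it is not given in the sources used here. HFD feeding started at an age of 6 weeks in all 10 mice and lasted 7 weeks, and tissue was collected after 5 h of fasting. Expression is given as FPKM, that is, reads per gene scaled by gene length and library size. Whole liver was sequenced, so fewer cells of a type and less RNA per cell cannot be told apart.

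Conjugation is the second phase of detoxification. GSTs add the tripeptide glutathione to electrophiles, UGTs transfer glucuronic acid from UDP-glucuronate onto small lipophilic acceptors in the endoplasmic reticulum, and SULTs transfer sulfate from the cofactor PAPS. The products are water-soluble and leave the hepatocyte through transporters of the ABC family. In mouse liver many of these genes are induced through NRF2, a sensor system for electrophiles, or through the nuclear receptors CAR and PXR and the aryl hydrocarbon receptor, and several differ between the sexes.

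Regulatory sequence is shown for a pair of genes whose coding sequences are close and whose levels are far apart. Promoters (RefSeq, GRCm38.p6, 250 bases before and 50 after the start) were found for 60 of the 68 genes, in 72 entries. The pair shown is Gstp1 and Gstp2, neighbours on chromosome 19, whose coding sequences were 98.1% identical and whose 250 bases before the start were 78.1% identical, although the mean levels were 1184 and 3.41 FPKM. Both promoters hold the same stretch of 30 bases around TGAGNNNGC, one form of the core of the antioxidant response element, at position -74 (Gstp1) and -89 (Gstp2) from the start. Capitals mark this core, whose first bases also match TGANTCA, the pattern searched for the AP-1 element.
Gstp1 (chr19:4037967-4037996, minus strand): tccaacgtgtTGAGTCAGCatccggggcgg
Gstp2 (chr19:4042291-4042320, minus strand): tccaacgtgtTGAGTCAGCatccggggcgg
Counted on both strands, TGAGNNNGC occurred in 15 of the 72 promoter entries (20.8%), against 17.6% of all 32851 promoters, and the alternative core TGACNNNGC in 4 (5.56%), namely Gsta3, Gstm5, Gstm7 and Mgst1, against 12.4%. TGANTCA, in which any middle base was allowed, occurred in 14 (19.4%, against 7.81%). The match read TGAATCA or TGATTCA in Sult2a8, Ugt1a6a, Ugt2b1, Ugt2b35 and Ugt2b38. In the others it read TGACTCA or TGAGTCA, the usual forms of the AP-1 element. These forms were not counted apart over all promoters. The xenobiotic response element TNGCGTG, bound by the aryl hydrocarbon receptor, was found in 3 entries (4.17%, against 5.07%), those of Gsta2, Sult1d1 and Ugt1a5, and the ATF4 element TGATGNAA in 1 (1.39%, against 3.97%), that of Sult1e1. A match describes these letters and shows no binding.

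Libraries held 13367742 to 16163378 reads on genes. The targeted gene Map3k5, which encodes ASK1, was at 4.71 to 6.88 FPKM in 4 ASK1f/f livers but at 19.8 FPKM in ASK1f/f replicate 5, the highest value of all 10 and against its label, and at 7.68 to 16.4 FPKM in ASK1+hep livers. Reads of the cDNA and of the endogenous gene are not separated. ASK1+hep replicate 3 stood apart in the transcriptome: it held the highest or the lowest value of the 10 livers in 52.4% of 13304 genes without ties. Values below are therefore given with and without these libraries where it matters. The labels give no sex. The Y-linked genes Ddx3y and Eif2s3y were at means of 8.86 to 10.3 FPKM in both groups and Xist at 0.00641 and 0.00621 FPKM, as in male livers. Alb, Apoa1 and Ttr were abundant in every liver, as the tissue label says.

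**Figure D1:**
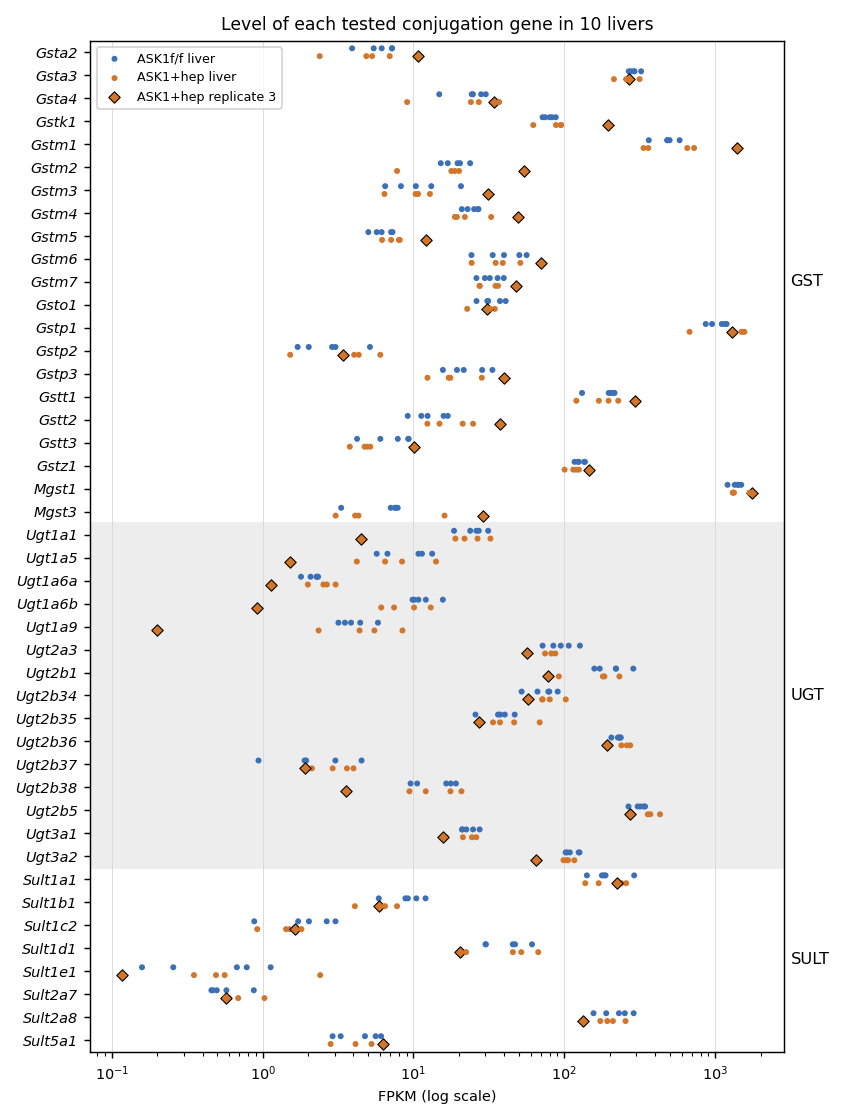
FPKM (log axis) of the 44 tested GST, UGT and SULT genes, 1 point per liver, ASK1f/f in blue, ASK1+hep in orange and ASK1+hep replicate 3 as a black-edged diamond. Levels span from under 1 to over 1000 FPKM, and the genotypes overlap in all 44 genes. The diamond lies at the right end of 16 of 21 GST genes and at the left end of 11 of 15 UGT genes. Over all genes, this liver was highest in 26.4% and lowest in 26.1%.

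Of the 68 genes, 44 passed the filter on low reads (a minimum of 10 reads in 5 or more livers after scaling to the median library, and of 15 reads over all livers) and were tested, namely 21 GST, 15 UGT and 8 SULT genes. The other 24 were low in both genotypes, with 1.79 FPKM as their highest single value (Ugt1a7c in ASK1f/f replicate 5), and 7 of them had 0 reads in every liver, which were Sult1c1, Sult2a3, Sult2a4, Sult2a6, Sult3a2, Ugt2a1 and Ugt2a2. GST genes made up 72.3%, UGT genes 19.6% and SULT genes 8.1% of the summed FPKM of all members. Expression was concentrated in few genes, since 12 members had a mean over 100 FPKM and the 5 most abundant, Mgst1, Gstp1, Gstm1, Ugt2b5 and Gsta3, held 66.1% of the sum. This order is that of the means. Over the 10 livers the ranges of Mgst1 (1208 to 1760 FPKM) and Gstp1 (677 to 1564 FPKM) overlapped, as did those of Gstp1 and Gstm1 (335 to 1388 FPKM). The ranges of Ugt2b5 (266 to 431 FPKM) and Gsta3 (213 to 323 FPKM) overlapped too. All genes were measured in the same livers, and differences between genes within livers were not tested.

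To address whether hepatic ASK1 overexpression was accompanied by altered conjugation enzyme expression, log2(FPKM + 1) of both genotypes was tested with limma, with Benjamini-Hochberg adjustment over the 13306 genes that passed the filter. None of the 44 conjugation genes was past an adjusted p of 0.05, where the share of all genes was 0% (0 of 13306), and the lowest adjusted p of a member was 0.812 (limma). At an unadjusted p under 0.05 there were 3 of 44 members (6.82%), against 768 of all genes (5.77%). These were Gstt2, higher in ASK1+hep (1 member, 2.27%, against 3.05% of all genes), and Sult1b1 and Ugt2a3, lower (2 members, 4.55%, against 2.72%). No member had genotypes that did not overlap, against 0.864% of all genes. Fitted log2 fold changes, ASK1+hep over ASK1f/f, were above 0 in 25 members (56.8%, against 48% of all genes) and below 0 in 19 (against 52% of all genes), with a median of 0.03 against -0.0065 for all genes. When libraries were scaled by all reads instead of FPKM, 16 of 44 members were above 0. All genes moved in the same direction, with 4686 of 13306 above 0, against 6392 with FPKM. With this scaling 1 member was higher and 2 were lower at an unadjusted p under 0.05. Of the 862 such calls over all genes, 271 were higher (31.4%), against 406 of 768 with FPKM (52.9%). With FPKM and without ASK1+hep replicate 3, fitted log2 fold changes were above 0 in 20 members (48.9% of all genes), with a median of -0.068. Then 2 members (4.55%, against 4.54% of all genes), Gstt3 and Sult1b1, were at an unadjusted p under 0.05. With ASK1f/f replicate 5 left out in addition, 16 members were above 0 (48.8% of all genes) with a median of -0.11, and 5 were at an unadjusted p under 0.05 (11.4%, against 5.58% of all genes), of which Gstt3, Sult1b1, Sult1c2 and Ugt2a3 were lower and Ugt2b37 was higher. The standard errors of the members were 0.093 to 0.50, so differences of the size seen in most of them were not detectable with 5 livers a group.

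**Figure D2:**
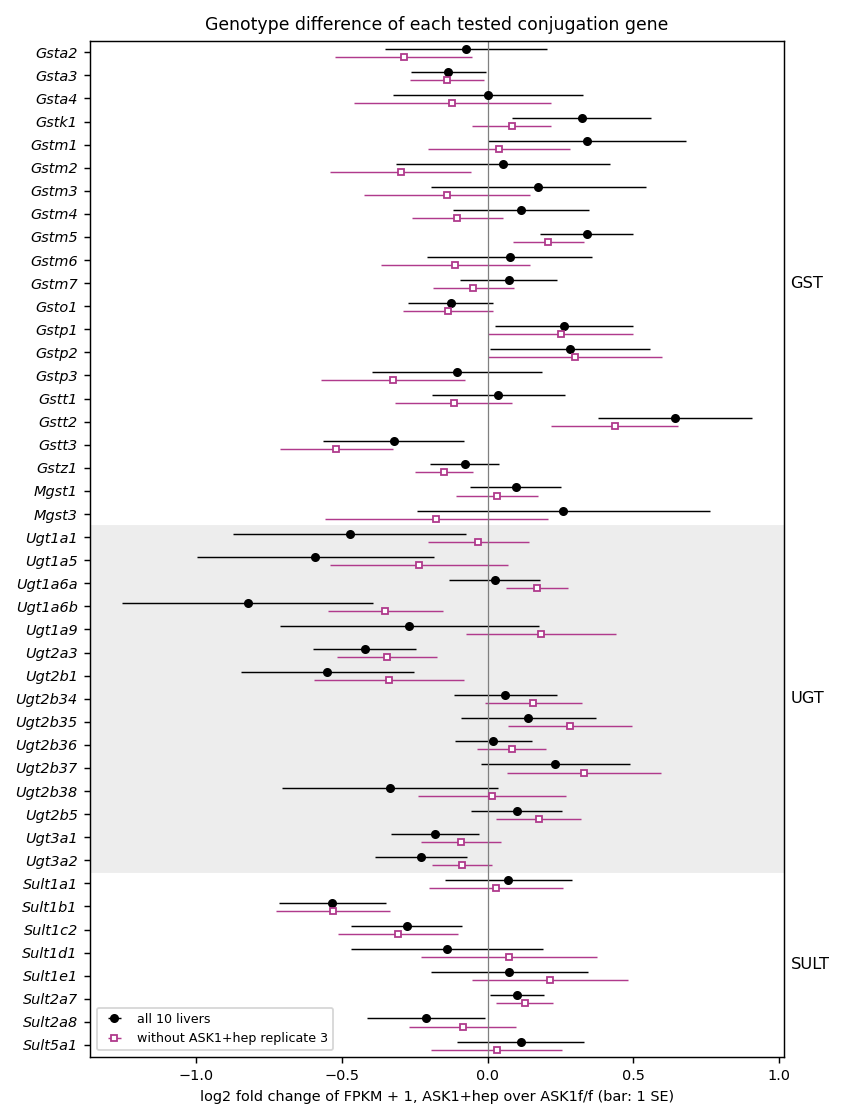
Log2 fold change of FPKM + 1, ASK1+hep over ASK1f/f, of the 44 tested genes with bars of 1 SE, for all 10 livers (filled circles) and without ASK1+hep replicate 3 (open squares). The squares of most GST genes lie to the left of the circles, those of Ugt1a1, Ugt1a5, Ugt1a6b and Ugt1a9 to the right, and Sult1b1 is at -0.53 with both.

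Among the cytosolic GSTs, the alpha class detoxifies products of lipid peroxidation. Gsta3 (chr1:21240589-21265661, GRCm38, as all positions below) was by far the most abundant of its class. In the ASK1f/f livers (replicates 1 to 5) it was at 292, 323, 276, 289 and 267 FPKM, and in the ASK1+hep livers (replicates 1 to 5) at 271, 213, 267, 316 and 258 FPKM. The groups overlapped, with means of 289 ± 21.2 and 265 ± 36.5 FPKM (SD, n = 5 each) and a log2 fold change of -0.13 (SE 0.13). Gsta4, which acts on the lipid aldehyde 4-hydroxynonenal, was at 24.4 ± 5.88 and 26.2 ± 10.9 FPKM (SD, n = 5 each), and its lowest value, 9.08 FPKM, was in ASK1+hep replicate 1. Gsta2 was at 2.39 to 10.7 FPKM over all livers. Gsta1, 97.6% identical to Gsta2 in its coding sequence, was not tested, with a highest value of 1.17 FPKM. Since 81.8% of the 100-base stretches of Gsta1 and 35% of those of Gsta2 occur in another gene, the split of reads between them is uncertain.

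The mu class lies in a cluster on chromosome 3 (positions 107895821 to 108044894), and all 7 genes were tested. Gstm1, the main mu enzyme of mouse liver, was at 581, 499, 483, 481 and 363 FPKM in controls and at 335, 725, 1388, 653 and 360 FPKM in ASK1+hep replicates 1 to 5. ASK1+hep replicate 3 was the highest of all 10 livers, whereas replicates 1 and 5 were below every control. The means were 481 ± 77.9 and 692 ± 426 FPKM (SD, n = 5 each), and the log2 fold change of 0.34 (SE 0.34) was 0.04 without replicate 3 and -0.06 without ASK1f/f replicate 5 in addition. The other mu genes were lower, from a mean of 7.28 FPKM for Gstm5 to 42.4 FPKM for Gstm6. Gstm2, Gstm3, Gstm4, Gstm5, Gstm6 and Gstm7 also had their highest value in ASK1+hep replicate 3 (54, 31.1, 49.3, 12.2, 70 and 48.1 FPKM). All 7 fitted fold changes were above 0, with a median of 0.11, but only 2 were without that liver, with a median of -0.11. Scaling by all reads turned Gstm2 below 0 (-0.02). Gstm5 had the lowest p of the class, at 5.02 to 7.26 FPKM in controls and 6.19 to 12.2 FPKM in ASK1+hep (log2 fold change 0.34, SE 0.16, exact permutation p = 0.0635).

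The pi class conjugates a wide range of electrophiles and, in male mice, is among the most abundant GST proteins of the liver. Gstp1 (chr19:4035407-4037921) was at 866, 1107, 1158, 954 and 1191 FPKM in controls and at 677, 1527, 1300, 1564 and 1493 FPKM in ASK1+hep replicates 1 to 5. In 4 of 5 ASK1+hep livers the level exceeded every control, whereas ASK1+hep replicate 1 held the lowest value of all 10. The means were 1055 ± 139 and 1312 ± 370 FPKM (SD, n = 5 each), and the log2 fold change of 0.26 (SE 0.24) did not differ beyond the spread between livers (exact permutation p = 0.294). Gstp2 was at 1.52 to 6.03 FPKM. Since 52.8% of the 100-base stretches of Gstp1 and 63.5% of those of Gstp2 occur in another gene, the split of reads between them is uncertain. Gstp3, with 72.7% coding identity to Gstp1, was at 12.4 to 39.9 FPKM.

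The theta class acts on small halogenated compounds. Gstt1 was its most abundant gene, at 131 to 215 FPKM in controls and 120 to 295 FPKM in ASK1+hep. Gstt2 (chr10:75831114-75837424) was at 15.8, 12.4, 16.9, 11.3 and 9.16 FPKM in controls and at 12.4, 24.8, 37.4, 21.2 and 14.9 FPKM in ASK1+hep replicates 1 to 5. Of the ASK1+hep livers, 3 (replicates 2, 3 and 4) were above every control and the other 2 lay within the control range. Means of 13.1 ± 3.21 and 22.1 ± 9.85 FPKM (SD, n = 5 each) corresponded to the highest log2 fold change of all members, 0.64 (SE 0.26), with an exact permutation p of 0.0873 and an adjusted p of 0.812 (limma). It was 0.44 without ASK1+hep replicate 3. The neighbouring Gstt3 went the other way, at 7.33 ± 2.18 and 5.75 ± 2.5 FPKM (SD, n = 5 each), with a log2 fold change of -0.32 (SE 0.24). Its only high ASK1+hep value, 10.1 FPKM, was that of replicate 3, and without this liver and ASK1f/f replicate 5 the log2 fold change was -0.68 with an adjusted p of 0.272 (limma). This gene was singled out after its values were seen, and 23.9% of its 100-base stretches are shared with the overlapping gene Gm20441.

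The zeta, omega and kappa classes had 1 tested gene each. Gstz1, which also serves as maleylacetoacetate isomerase in tyrosine breakdown, was at 117 to 137 FPKM in controls and 100 to 147 FPKM in ASK1+hep. Gsto1, a glutathione-dependent reductase, was at 22.7 to 40.9 FPKM in all livers. Gstk1, which resides in mitochondria and peroxisomes, was at 71.8 to 87.8 FPKM in ASK1f/f, and at 88, 94.8, 195, 95.3 and 62.3 FPKM in ASK1+hep replicates 1 to 5. Its log2 fold change of 0.32 (SE 0.24) was 0.08 without replicate 3. Of the membrane-bound microsomal GSTs, Mgst1 (chr6:138140316-138156755) was the most abundant of all conjugation genes, at 1208, 1414, 1347, 1433 and 1490 FPKM in controls and 1319, 1308, 1760, 1692 and 1333 FPKM in ASK1+hep. The groups overlapped, at 1378 ± 108 and 1482 ± 224 FPKM (SD, n = 5 each), with a log2 fold change of 0.1 (SE 0.16). Mgst3 was the most variable GST, with 7.86, 7.53, 7.07, 7.67 and 3.32 FPKM in controls and 3.05, 16.1, 28.8, 4.32 and 4.1 FPKM in ASK1+hep, a 9.47-fold range. ASK1+hep replicates 2 and 3 were above every control and the other 3 below 4 of the 5 controls, and the fitted log2 fold change of 0.26 (SE 0.50) was -0.18 without replicate 3. Mgst2, Gsto2 and Gstt4 had 18, 13 and 1 reads in all 10 livers together.

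UGT genes of family 1 share their last exons. The 9 Ugt1a genes start at separate first exons between positions 88055388 and 88211959 of chromosome 1 and shared 50.3% to 60.6% of their exon bases with another Ugt1a gene on the same strand. The deposited gene lengths include these shared bases, and how reads on them were counted is not given in the sources used here, so levels of Ugt1a genes relative to other genes are uncertain. Ugt1a1, the enzyme that glucuronidates bilirubin, was the most abundant, at 26.1, 27.1, 31.3, 23.8 and 18.6 FPKM in controls and 26.6, 21.8, 4.5, 19 and 32.4 FPKM in ASK1+hep replicates 1 to 5. Of the ASK1+hep livers, 4 lay within or just above the control range, and replicate 3 was far below it. Accordingly the log2 fold change of -0.47 (SE 0.40) was -0.03 without that liver. Ugt1a6b, a phenol UGT, was at 9.86, 12.1, 10.1, 10.8 and 15.7 FPKM in controls and 10.1, 7.44, 0.914, 6.11 and 13 FPKM in ASK1+hep. This gave the lowest log2 fold change of all members, -0.82 (SE 0.43, exact permutation p = 0.0952), which was -0.35 without replicate 3. Ugt1a5 (-0.59, SE 0.41) and Ugt1a9 (-0.27, SE 0.44) were at 1.52 and 0.199 FPKM in replicate 3, where the other livers were at 4.21 to 14.1 and 2.35 to 8.45 FPKM. For Ugt1a9 the log2 fold change was -0.60 on log2(FPKM + 0.1), -0.67 with limma-voom and 0.18 without replicate 3. Ugt1a6a was low throughout (1.14 to 3.05 FPKM). Its annotated 100-base stretches all occur in another gene. Ugt1a2, Ugt1a7c, Ugt1a8 and Ugt1a10 were not tested.

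The UGT2 genes, which glucuronidate steroids, bile acids and many drugs, are clustered on chromosome 5 and held the highest UGT levels. Ugt2b5 was at 306, 266, 319, 336 and 343 FPKM in controls and 271, 358, 272, 372 and 431 FPKM in ASK1+hep (means 314 ± 30.2 and 341 ± 68.9 FPKM, SD, n = 5 each; log2 fold change 0.1, SE 0.16). Ugt2b36 had the narrowest range of all 44 members, at 193 to 274 FPKM (1.42-fold). Ugt2b1 was at 220, 158, 220, 287 and 172 FPKM in controls and 232, 92, 77.9, 180 and 184 FPKM in ASK1+hep, with replicates 2 and 3 below every other liver (log2 fold change -0.55, SE 0.30, exact permutation p = 0.183). Ugt2a3 (chr5:87324972-87337195) was at 94.8, 84.6, 127, 107 and 71.8 FPKM in controls and 82, 58.3, 56.9, 74.6 and 87.2 FPKM in ASK1+hep. Replicates 2 and 3 of ASK1+hep were below every control, and the other 3 lay within the control range. The means were 97 ± 21.2 and 71.8 ± 13.7 FPKM (SD, n = 5 each), the log2 fold change was -0.42 (SE 0.18, exact permutation p = 0.0714), and it was -0.35 without replicate 3. Ugt2b34, Ugt2b35, Ugt2b37 and Ugt2b38 had means of 75, 40, 2.69 and 13.7 FPKM. Ugt2b38 shares 97% of its coding sequence with Ugt2b5, and the split of reads between them is uncertain. In family 3, Ugt3a2 was at 102 to 126 FPKM in controls and 64.5 to 116 FPKM in ASK1+hep, and Ugt3a1 at 15.7 to 27.5 FPKM in all livers. Ugt8a, which makes galactosylceramide in myelinating cells, had 24 reads over 10 livers.

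Of the SULT genes, Sult2a8, Sult1a1 and Sult1d1 accounted for most of the expression. Sult2a8 (chr7:14410686-14446769), a bile acid sulfotransferase of mouse liver, was at 230, 190, 288, 252 and 156 FPKM in controls and 210, 173, 133, 193 and 255 FPKM in ASK1+hep. The ranges overlapped, with means of 223 ± 51.8 and 193 ± 45 FPKM (SD, n = 5 each) and a log2 fold change of -0.21 (SE 0.20). Sult1a1, the phenol sulfotransferase, was at 183, 291, 188, 178 and 141 FPKM in controls and 239, 257, 224, 169 and 138 FPKM in ASK1+hep. Both genotypes covered nearly the same range (log2 fold change 0.07, SE 0.22, and -0.01 with scaling by all reads). Sult1d1, which sulfates catecholamines, was at 30 to 61.1 and 20.2 to 67.2 FPKM.

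Sult1b1 (chr5:87513339-87538195), a thyroid hormone sulfotransferase, had the lowest p of all 44 members. It was at 9.18, 8.84, 12, 10.4 and 5.89 FPKM in controls and at 7.78, 4.09, 5.93, 6.48 and 6.01 FPKM in ASK1+hep. In 4 controls the level was above every ASK1+hep liver, and the exception was ASK1f/f replicate 5, the library whose Map3k5 level goes against its label. The means were 9.28 ± 2.27 and 6.06 ± 1.33 FPKM (SD, n = 5 each). The log2 fold change was -0.53 (SE 0.18), with an exact two-sided permutation p of 0.0397 and an adjusted p of 0.812 (limma). It ranged from -0.67 to -0.42 when single livers were left out. Without ASK1+hep replicate 3 and ASK1f/f replicate 5 it was -0.67 with an adjusted p of 0.381 (limma). Sult1c2, at 0.88 to 3.04 FPKM in controls and 0.921 to 1.81 FPKM in ASK1+hep, also had a fitted value below 0 (-0.28, SE 0.19). Sult5a1 was at 2.83 to 6.45 FPKM. Sult1e1, the estrogen sulfotransferase, was at 0.117 to 1.13 FPKM in 9 livers and at 2.41 FPKM in ASK1+hep replicate 1, and Sult2a7 was at 0.458 to 1.03 FPKM. The genes known for high levels in female liver were close to 0, with 4 reads for Sult2a1, 2 for Sult2a2, 1 for Sult2a5 and 2 for Sult3a1 over all 10 livers.

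ASK1+hep replicate 3 divided the enzyme families. It held the highest or lowest value of the 10 livers in 30 of the 44 members (68.2%, against 52.4% of all genes). Over all genes it was highest in 26.4% and lowest in 26.1%. In GST genes it was highest in 16 of 21 and lowest in 0. In UGT genes, in contrast, it was lowest in 11 of 15, all 5 tested Ugt1a genes included, and highest in 0. Of the SULT genes it was lowest in 3 of 8. Relative to the median of the other 9 livers, Mgst3 was at 4.08-fold, Gstm3 at 3-fold, Gstm1 at 2.88-fold, Gstm2 at 2.87-fold, Gstt2 at 2.51-fold and Gstk1 at 2.35-fold. At the other end, Ugt1a9 was at 0.0453-fold, Ugt1a6b at 0.0902-fold, Ugt1a1 at 0.172-fold, Ugt1a5 at 0.18-fold and Ugt2b38 at 0.216-fold. Gsta3, Gsto1 and Gstp1, at 0.967-, 0.987- and 1.12-fold, were close to it. The summed GST level was 5812 FPKM in this liver and 3186 to 4931 FPKM in the others, and the summed UGT level was 778 FPKM against 984 to 1380 FPKM. Accordingly the GST genes had a median log2 fold change between genotypes of 0.08 with 15 above 0, and of -0.12 with 7 above 0 without this liver. UGT genes had a median of -0.23 with 6 above 0, and of 0.01 with 8 above 0 without it. SULT genes had a median of -0.03 with 4 above 0, and of 0.03 with 5 above 0. As medians of log2 differences from the median of the other 9 livers, replicate 3 was at 0.82 for GST and -0.62 for UGT genes, ASK1+hep replicate 2 at 0.13 and -0.25, ASK1+hep replicate 4 at 0.22 and -0.03, and ASK1+hep replicate 5, on the opposite sides, at -0.29 and 0.33. ASK1+hep replicate 1 was at -0.20 and 0.02. Shifts were also seen in controls. ASK1f/f replicates 1 to 5 were at 0.14, -0.0012, -0.04, 0.10 and -0.41 for GST genes. For UGT genes they were at -0.04, -0.18, 0.21, 0.09 and 0.06. ASK1+hep replicate 5 was also next in extreme values, highest or lowest in 16 members (36.4%, against 33.1% of all genes), and the other 8 livers in 1 to 10.

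**Figure D3:**
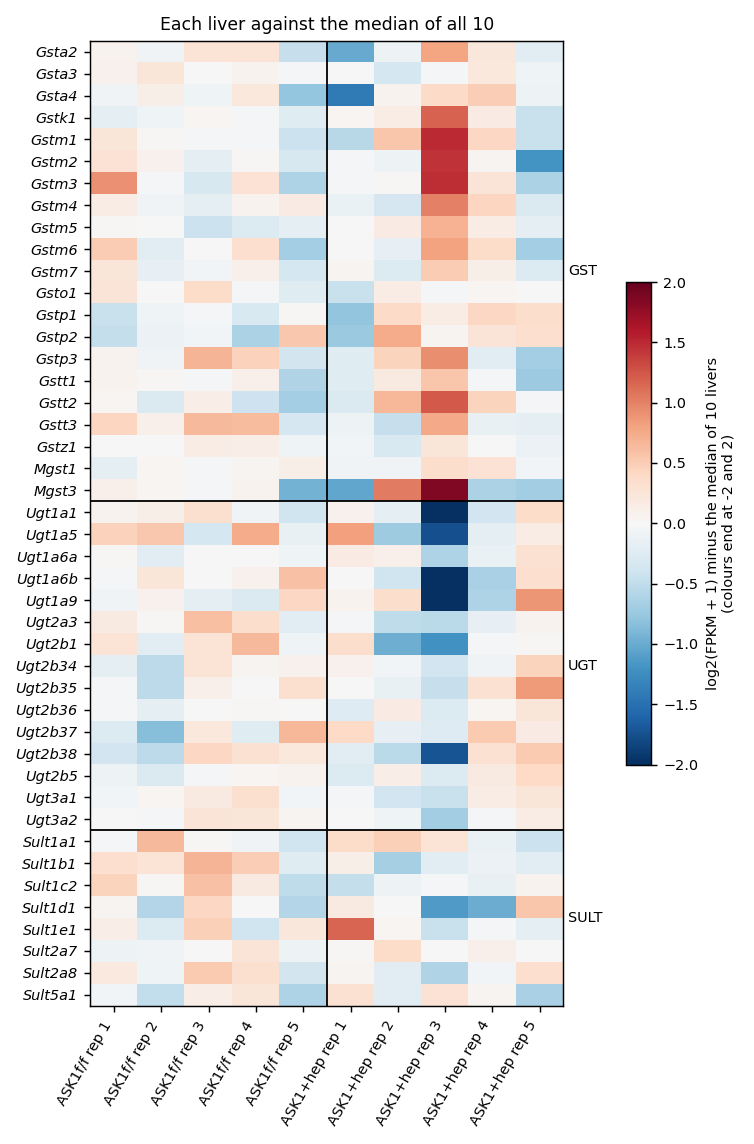
Colour gives log2(FPKM + 1) of each tested gene (rows, by family) in each liver (columns) minus the median of the 10 livers, with red above and blue below it. The column of ASK1+hep replicate 3 is red across most GST genes and blue across most UGT genes, darkest in Ugt1a1, Ugt1a6b and Ugt1a9, the column of ASK1+hep replicate 2 shows a fainter split of the same kind, and that of ASK1+hep replicate 5 the opposite one.

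Several technical measures moved with this liver. Its library had the lowest scaling factor between FPKM and all reads (0.89, against 0.967 to 1.06 in the others) and the fewest genes above 0 (18391, against 19263 to 20315). Short genes were higher in it: the median log2 difference from the median of the other 9 livers was 0.42 over the 1580 tested genes under 1500 bases and -0.08 over the 7763 genes of 3500 bases or more, where the other livers were at -0.18 to 0.17 and -0.04 to 0.05. Tested GST genes had a median length of 1528 bases, UGT genes of 2224 bases and all tested genes of 4107.5 bases. Over these 13306 genes, the difference and gene length had a Spearman correlation of -0.32 in this liver, -0.34 in ASK1+hep replicate 4 and 0.31 in ASK1+hep replicate 5. Within length classes of replicate 3, the 3 Gstp genes, all under 1000 bases, had a median of 0.17 and so lay below the 0.46 of all 835 genes of that class. Among genes of 1000 to under 1500 bases the median was 1.22 for 7 GST genes and 0.38 for all 745 genes. From 1500 to under 2000 bases it was 0.70 for 6 GST genes, -0.42 for 3 UGT genes and 0.26 for all 890 genes. In the class of 2000 to under 2500 bases, which holds 6 of the 15 UGT genes, their median was -2.04, where 1 GST gene was at 0.39 and all 998 genes at 0.16. Genes outside the families were also far from the other livers, such as Cps1, the first enzyme of the urea cycle, at 0.186-fold and Ttr at 2.11-fold of the median of the other 9. The part of library quality in the split was not tested beyond these values.

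**Figure D4:**
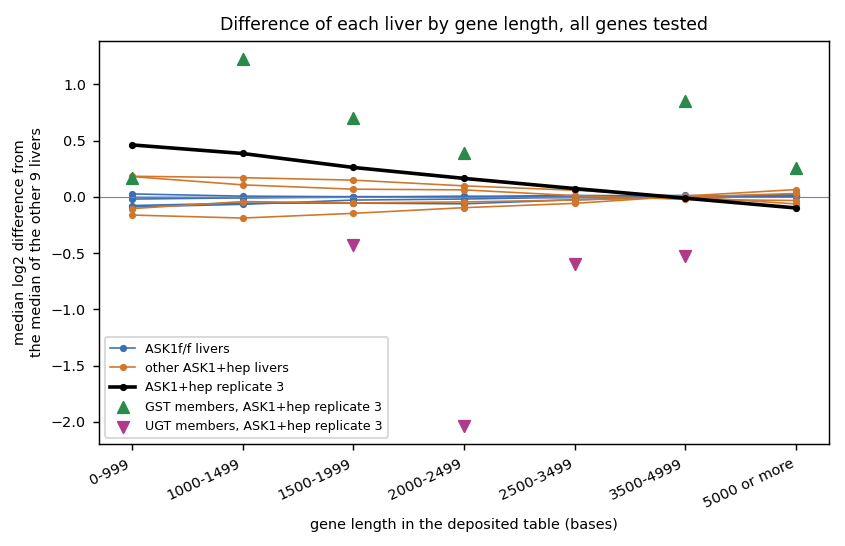
Median log2 difference of each liver from the median of the other 9 (y axis) in classes of gene length (x axis, bases) over all tested genes, with ASK1f/f livers in blue, ASK1+hep livers in orange and ASK1+hep replicate 3 in black. Triangles give the medians of GST (up) and UGT (down) genes in that replicate, which lie above and below 0, respectively, in each class that holds them. The GST triangle lies below the black line in genes under 1000 bases, and this line goes from 0.46 for genes under 1000 bases to -0.10 for those of 5000 bases or more.

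Genes were examined in lists named for the supply of glutathione, UDP-glucuronate and PAPS, for deconjugation and for conjugate export. Whether each listed enzyme acts on products of the GST, UGT and SULT enzymes was not examined. No gene of any of these lists was past the adjusted threshold. Of 10 tested genes of glutathione supply, Gss (glutathione synthetase) and Ggct (gamma-glutamylcyclotransferase) were higher in ASK1+hep at an unadjusted p under 0.05, with log2 fold changes of 0.39 (SE 0.17) and 0.27 (SE 0.11), and 0 were lower. Both were highest in replicate 3 and at 0.28 and 0.18 without it. Gclc and Gclm, the subunits of the rate-limiting ligase, were at 44.5 ± 10 and 50.6 ± 10.3 FPKM and at 26.7 ± 2.14 and 27.6 ± 4.73 FPKM (SD, n = 5 each). Slc7a11, the cystine carrier, was close to 0. Of the 5 genes of UDP-glucuronate supply and the 9 tested genes of PAPS supply, 0 were at an unadjusted p under 0.05, and the medians were 0.06 and -0.05. Ugdh, which makes UDP-glucuronate, was at 17.2 ± 5.14 and 17.9 ± 2.68 FPKM, and Papss2, the main PAPS synthase of liver, at 36.5 ± 10.8 and 33.8 ± 8.68 FPKM (SD, n = 5 each). Among 5 genes of deconjugation, the sulfatase gene Arsb was lower (log2 fold change -0.30, SE 0.11, exact permutation p = 0.00794, the smallest that 252 splits can give, adjusted p = 0.812 in limma) and the glucuronidase gene Gusb was at 5.92 ± 0.38 and 5.09 ± 1.08 FPKM. Among 6 genes of conjugate export, Abcc6 was lower at an unadjusted p under 0.05 (log2 fold change -0.27, SE 0.12), and the canalicular exporter Abcc2 was at 51.8 ± 5.63 and 52.5 ± 17 FPKM (SD, n = 5 each).

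Of 17 regulator genes, Maff was higher (log2 fold change 0.40, SE 0.15) and Esr1 lower (-0.31, SE 0.12) at an unadjusted p under 0.05. Nfe2l2, which encodes NRF2, was at 15.3 ± 2.46 and 17.1 ± 2.88 FPKM, and its 7 target genes outside the families had a median of 0.16 with 0 at an unadjusted p under 0.05. Nr1i3 (CAR), Ahr and Ppara were lowest in ASK1+hep replicate 3, at 0.397-, 0.325- and 0.45-fold of the median of the other 9, with fitted differences between genotypes of -0.37, -0.29 and -0.32 (SE 0.20, 0.31 and 0.25). Of 2 tested targets of CAR and PXR, Cyp3a11 was at 121 ± 84.4 FPKM in controls and 323 ± 154 FPKM in ASK1+hep (SD, n = 5 each; log2 fold change 1.5, SE 0.44, exact permutation p = 0.0238, adjusted p = 0.804 in limma) and Cyp2c29 at 100 ± 18.6 and 75.7 ± 19 FPKM. Of 3 tested targets of the aryl hydrocarbon receptor, 0 were at an unadjusted p under 0.05. Among 8 male-biased genes, Mup20 and Elovl3 were higher (log2 fold changes 0.78 and 0.69). The median of that list was 0.02, with 5 genes fitted above 0 and 3 below. Of 9 female-biased genes Cyp17a1 was the only one tested (0.97, SE 0.23, adjusted p = 0.712 in limma). Of 5 sex-chromosome genes, 4 were tested and 0 were at an unadjusted p under 0.05. The zonation lists held Glul and Oat, pericentral and higher (0.42 and 0.34), among 8 genes, and Cyp2f2, periportal and lower (-0.32), among 8. Mup20, Elovl3, Cyp17a1, Glul, Oat and Cyp2f2 were at an unadjusted p under 0.05 (limma), as were 5.77% of all genes. The pericentral list had a median of 0.11, with 6 genes fitted above 0 and 2 below. For the periportal list the median was -0.15, with 2 above 0, such as Pck1 at 0.27, and 6 below.

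Markers of other cell types were summed by list, and their part in the results was not tested. The summed cholangiocyte markers (6 genes) were at 13.8 to 32.9 FPKM in controls and 15.7 to 28.7 FPKM in ASK1+hep, the Kupffer markers (6) at 82.7 to 141 and 52.5 to 132 FPKM, the endothelial markers (6) at 27.2 to 41.1 and 22.6 to 40.8 FPKM, and the stellate and fibroblast markers (6) at 19.3 to 29.6 and 15.5 to 28.7 FPKM. Neutrophil (4) and lymphocyte (5) markers reached at most 15.8 and 3.79 FPKM. None of these 6 lists held a gene at an unadjusted p under 0.05. Of 7 hepatocyte markers, Ttr was higher and F2 lower at that level (log2 fold changes 0.52 and -0.30). Of 5 erythroid genes, Hba-a2 (1.20, SE 0.29) and Hbb-bt (0.64, SE 0.24) were higher, and the sum was at 333 to 490 FPKM in controls and 324 to 1053 FPKM in ASK1+hep, with 833 FPKM in replicate 3. The adipocyte sum (4 genes) was 4.82 to 147 and 3.83 to 160 FPKM, and rested on Cfd, while Adipoq and Plin1 were close to 0 and Lep at 0 in every liver. The intestinal and pancreatic sum (6 genes) was highest in replicate 3, at 249 FPKM, where the others ranged from 113 FPKM. The sum rested mostly on Fabp2, which hepatocytes also express. Cela1 of the same list was at 6.99 to 19.97 FPKM over all livers, with 15.6 FPKM in ASK1+hep replicate 3. Ctrb1 reached at most 0.969 FPKM, in ASK1+hep replicate 2, and Prss2, Pnlip and Vil1 were close to 0.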

How the data were processed

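Liver RNA was sequenced by the study's provider after poly-A selection. Reads were cleaned (fastp in the submitters' processing notes), mapped with Hisat2 and counted with FeatureCounts. The deposited table holds FPKM, with the position and length of every gene. Strand and overlap settings, genome build and annotation are not given in the sources used here. All 68 members were found in GENCODE M21 (GRCm38), 64 at the same coordinates (Gsto2, Gstp1, Gstp2 and Gstp3 differed), and positions are those of the deposited table. FPKM times gene length was a whole multiple of 1 step in each library (tolerance 0.01 reads), so reads were recovered for the filter, the depth and limma-voom.

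The study's DESeq2 test was not repeated, since the deposited unit is FPKM, although whole reads could be recovered. The results here are therefore not those of that test. The main test was limma 3.58.1 (R 4.3.3) on log2(FPKM + 1), trend fitted on mean expression. This scale understates changes of low genes. Single genes were also compared by exact two-sided permutation over all 252 splits into 5 and 5. The fit was checked on simulated data with independent noise and known changes in 200 genes over 1 FPKM. At a true log2 fold change of 1, 83% of these were recovered, with a median absolute estimate of 0.82. No simulated liver stood apart as ASK1+hep replicate 3 did, so the check does not cover such a liver.

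Members follow from gene names alone, but the choice of these families and of the lists was made with earlier results of these data known. Named are the most abundant gene of each family, the 10 members with the lowest p, members without overlap, the 6 of at least 1 FPKM with the widest range, and a fixed list. Members outside this rule were named for their place in a family after their values were seen. Alternatives were no filter, a minimum of 10 reads in every liver, a pseudocount of 0.1, limma-voom (plain or with quality weights), blocks by replicate number or by the prefix of the animal tag, scaling by all reads and leaving out each liver. Leaving out ASK1+hep replicate 3 and ASK1f/f replicate 5 together, and the length classes, were added after seeing the data. Promoters are from RefSeq. Of the regulator list, 1 gene is not reported here. No 2 libraries agreed within sampling noise (lowest chi-square per gene 19). Counting intervals were not given, since values rest on replicates. Figures were drawn with matplotlib 3.10.9.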

Additional observations from a re-analysis of the deposited data

Results flagged for a closer look

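Within each genotype, the highest and lowest liver of the named, tested genes were compared with the other 4 of the group. In 6 of 64 groups of 5 values the gap to the nearest value was over 0.71 of the group's range. For groups chosen without regard to their values, chance gives about 1 in 20, or 3.2. Some of these genes, Gstm2 and Mgst3 included, were named for a wide range or a low p in these same values. The chance rate therefore does not hold for them, and no excess can be read from the count. ASK1+hep replicate 3 was high for Gstk1 (194.6 FPKM, nearest 95.3), Gstm2 (54 FPKM, nearest 20) and Gstm3 (31.1 FPKM, nearest 12.9). ASK1f/f replicate 5 was low for Gstt1 (131.1 FPKM, nearest 196.9) and Mgst3 (3.32 FPKM, nearest 7.07). ASK1+hep replicate 1 was high for Sult1e1 (2.41 FPKM, nearest 0.56). No explanation of these values was tested.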

How the results depend on the processing

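In 19 alternatives, 0 of the 32 named and tested conjugation genes were past the adjusted threshold (lowest adjusted p 0.381, limma), 18 kept the sign of their fold change in all of them and 14 changed it in at least 1. Over all genes, 1 was past the threshold with limma-voom and quality weights, 3 without both ASK1+hep replicate 3 and ASK1f/f replicate 5, and 0 to 1 when single livers were left out. Without a filter, 1222 genes and 6 conjugation genes were at an unadjusted p under 0.05, where more genes were tested, and 5 conjugation genes without both livers, where the median fold change of the conjugation genes was -0.11. Leaving out single livers gave 557 to 1724 genes, 1 to 7 conjugation genes and medians of -0.068 to 0.042. The labels do not say that a replicate number marks a litter. Animal tags of the same number are consecutive in 4 of 5 pairs. The correlation of deviations was 0.021 to 0.174 in the 5 pairs and over 0.1 in 2 of them. Its mean was 0.107 for the same number and -0.027 for different numbers. The main test did not treat the livers as paired, although these values do not exclude a pairing, and a fit with blocks is given beside it. With the replicate block 0 genes were past the threshold, and 880 genes and 4 conjugation genes were at an unadjusted p under 0.05, namely Gstt2, Sult1b1, Ugt1a6b and Ugt2b1. Set against the same fit without the block, Ugt1a6b and Ugt2b1 were added and Ugt2a3 was lost.

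The following log2 fold changes changed sign, and the cause was not tested. Gsta4 was at -0.0049 on log2(FPKM + 0.1) and -0.014 with limma-voom. With quality weights, Gsta4 was at -0.18, Gstm2 at -0.10, Gstm3 at -0.070, Gstt1 at -0.063 and Mgst3 at -0.25. With scaling by all reads, which moved the median of all genes to -0.05, Gsta4 was at -0.076, Gstm2 at -0.023, Gstt1 at -0.043, Sult1a1 at -0.0087, Ugt1a6a at -0.025 and Ugt2b36 at -0.059. Without both livers, Gsta4 was at -0.28, Gstm1 at -0.059, Gstm2 at -0.37, Gstm3 at -0.31, Gstt1 at -0.25, Mgst3 at -0.37, Sult1a1 at -0.078, Sult5a1 at -0.085 and Ugt1a9 at 0.29. Leaving out single livers gave -0.29 to 0.16 for Gsta2, -0.16 to 0.33 for Gsta4, -0.30 to 0.36 for Gstm2, -0.14 to 0.39 for Gstm3, -0.12 to 0.21 for Gstt1, -0.18 to 0.54 for Mgst3, -0.037 to 0.22 for Sult1a1, -0.35 to 0.074 for Sult1d1, -0.19 to 0.21 for Sult1e1, -0.0029 to 0.26 for Sult5a1, -0.060 to 0.17 for Ugt1a6a, -0.56 to 0.18 for Ugt1a9 and -0.043 to 0.083 for Ugt2b36.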
